A study of Mus musculus with 26 samples.

Results

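Mesenteric arteries carry a coat of perivascular fat, and the amount that stays on a vessel after dissection is not recorded for these samples. Adipoq, which encodes the fat cell hormone adiponectin, was used here to rank the libraries. The libraries whose number begins with 22 after the line code were left out of the ranking (9 of 26), and the other 17 were ranked by Adipoq as counts-per-million of total counts (CPM). The 6 highest were compared with the 6 lowest, selected on Adipoq alone, so the comparison holds 12 of the 26 libraries, and the 5 between them are in neither group. Because measured values chose these libraries, differences in expression between the high and the low group are given as a description, without a test. The 9 unranked libraries played no role in the choice, and tests were made in them.

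The series profiled poly(A) RNA of mesenteric arteries from male mice aged 8 weeks, by sequencing of paired reads. Its lines are a global knockout of Panx1, the gene of the pannexin 1 channel (labelled Panx1 KO), with wild-type (WT) controls, and 3 point mutants of pannexin 1, named Y198F, S205A and Y308F. Mutants carry the genotype Y198F+/+, S205A+/+ or Y308F+/+ in the labels, and their controls Y198F-/-, S205A-/- or Y308F-/-. The design text states that RNA came from 3 vascular trees of each kind and that controls were littermates or WT; no label says whether each library is a separate animal, so p-values measure the spread between these libraries.

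The high group held WT replicate 3, Y308F control replicates 1 and 2, Y308F replicate 1, Panx1 KO replicate 3 and S205A control replicate 4. The low group held Y198F control replicate 1, Panx1 KO replicates 1 and 2, Y308F replicate 3, S205A replicate 1 and Y308F control replicate 3. Mutants or knockouts were 2 of the 6 high and 4 of the 6 low libraries, a difference in labels, which the ranking did not use, that did not pass Fisher's exact test (two-sided p = 0.567). The 9 unranked libraries were 3 Y198F mutants, 3 S205A controls and 3 S205A mutants. Total counts were 18505883 to 23079721 in the high, 18308440 to 20513267 in the low and 14895969 to 20152220 in the unranked libraries. Ribosomal RNA took 2.316 to 7.085% of counts in the high, 2.416 to 3.442% in the low and 0.08315 to 0.1392% in the unranked libraries, and its part in the differences below was not tested. Panx1 itself was at 1.357 to 4.881 CPM in the high and 0.5821 to 4.741 CPM in the low libraries, and the ranges overlapped.

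White fat cells store triglyceride in 1 large droplet coated by perilipin 1 and sealed by the protein of Cidec. They take up fatty acids that lipoprotein lipase releases from lipoproteins, carry them inside the cell with the fatty acid binding protein of Fabp4, and release them again through lipases under the control of catecholamines and insulin. Fat around resistance arteries also secretes adipokines and angiotensinogen, and adiponectin is known to act on vascular tone. Brown fat cells differ by Ucp1, the uncoupling protein of thermogenesis.

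Adipoq (chromosome 16, 22964106 to 22976810, plus strand, GRCm39) spanned 8.658 to 264.3 CPM over the ranked libraries, a 30.53-fold range. In the high group WT replicate 3 stood at 264.3 CPM, Y308F control replicate 2 at 209.9, Y308F replicate 1 at 101.6, Panx1 KO replicate 3 at 93.92, S205A control replicate 4 at 83.30 and Y308F control replicate 1 at 77.12 CPM. In the low group Y198F control replicate 1 stood at 34.57 CPM, Panx1 KO replicate 1 at 34.03, Y308F replicate 3 at 33.65, S205A replicate 1 at 27.18, Panx1 KO replicate 2 at 18.48 and Y308F control replicate 3 at 8.658 CPM. The first library below the high group was Y308F replicate 2 at 65.33 CPM and the first above the low group was WT replicate 2 at 37.50 CPM, so neither boundary falls in a wide gap. Replicates of a group spread widely: the Y308F controls hold both the second highest and the lowest ranked library. In the unranked libraries Adipoq ran from 3.263 CPM in S205A replicate 4 to 268.2 CPM in Y198F replicate 3, an 82.18-fold range, with a median of 25.35 CPM. Per transcript length, Adipoq reached 173.3 ± 83.3 TPM (transcripts-per-million, mean ± SD, n = 6) in the high and 35.84 ± 14.7 TPM in the low group, while Acta2, the smooth muscle actin, was at 8796 ± 1830 and 10440 ± 1260 TPM. The muscle actin was the more abundant of these 2 transcripts in both groups. Ranking the same libraries by the mean log2 level of Plin1, Cidec, Lipe and Retn in place of Adipoq gave the same 6 high libraries and 5 of the same 6 low ones.

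**Figure D1:**
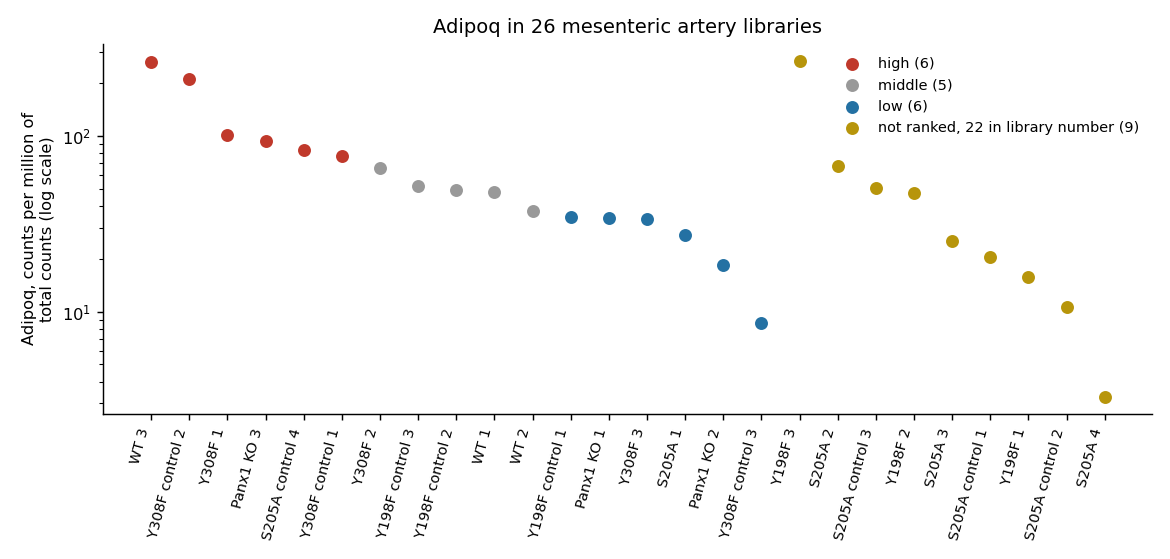
Adipoq in CPM of total counts (log axis) for each of the 26 libraries, 1 point per library, coloured by high (6), middle (5), low (6) and unranked (9). The 6 high libraries lie at 77.12 CPM and above, the 6 low ones at 34.57 CPM and below, and the unranked libraries span 3.263 to 268.2 CPM.

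Across 15893 genes tested, 73 (0.459%), Adipoq among them, were at least 2-fold higher in the high group with no overlap between the 6 high and the 6 low libraries. In the other direction 1 gene (0.00629%), the uncharacterised Gm36371, met the same rule. Without the 2-fold condition, 126 genes (0.793%) lay wholly above and 26 (0.164%) wholly below, 152 (0.956%) in all. Of the 15892 genes other than Adipoq, 8351 had a log2 fold change above 0 and 7541 below 0. In what follows a gene is called separated when the 6 high and 6 low libraries do not overlap; levels are CPM with library scaling, and fold changes are log2 differences of high minus low with a standard error (SE) from an edgeR fit. Leaving out S205A control replicate 4 raised the count of genes separated by at least 2-fold, other than Adipoq, from 73 to 116, the largest shift from any single library. Without WT replicate 3, the library with the most Adipoq, the count was 78, and 63 of those were among the 73. Smaller groups separate more easily under this rule, so counts tend to rise whichever library is left out. With the highest 8 against the lowest 8 libraries the count was 10.

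In the 9 unranked libraries, 55 of 16725 genes (0.329%) rose with Adipoq (edgeR quasi-likelihood test of the slope per doubling of Adipoq, label group as a term, Benjamini-Hochberg adjusted p under 0.05), and 0 fell. At an unadjusted p under 0.05, 647 genes (3.87%) passed in either direction; DESeq2 called 183 up and 2 down, and limma voom 83 up and 0 down. All 55 were protein-coding, and each of the 55 had a log2 fold change of at least 1 between the high and low groups. For some of them this rests on WT replicate 3: without it Elovl6 fell from 1.05 to 0.25 and Acaca from 1.15 to 0.46. Of the 72 genes separated upward by at least 2-fold, 68 could be tested in the unranked libraries, 30 of them (44.1%) passed, and 66 had a slope above 0, where 48.1% of all tested genes did. The 30 shared genes are 54.5% of the 55. Slopes of the 55 ran from 0.36 to 1.22 with a median of 0.81, where 1 means a doubling of the gene for each doubling of Adipoq. For 28 of the 55 the 95% confidence interval (CI) lay below 1 and for 27 it held 1. The result leans on the ends of the range: without Y198F replicate 3, the highest library, 19 genes passed, and without both it and S205A replicate 4, the lowest, 3 did (Plin1, Car3 and Fabp4). Without S205A control replicate 1 the count was 89. There were 17 genes that passed in the full fit and in each of the 9 fits with 1 library left out: Adrb3, Car3, Cd36, Ces1d, Cfd, Cidec, Dgat2, Fabp4, Hp, Klhdc7a, Lipe, Lpl, Pcx, Plin1, Retn, Scd1 and Trf.

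**Figure D2:**
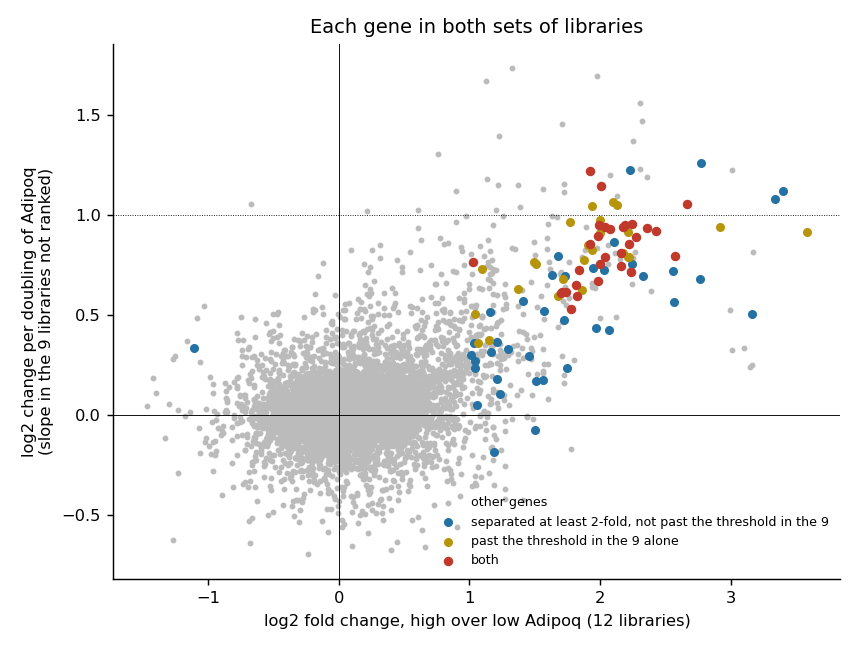
Each point is a gene tested in both sets of libraries; the horizontal axis is the log2 fold change of high over low Adipoq (12 libraries) and the vertical axis the log2 change per doubling of Adipoq in the 9 unranked libraries. The 30 genes that meet both criteria (red) and the 25 that pass in the 9 alone (yellow) all lie at a log2 fold change of 1 or more. Some of these fall below 1 when WT replicate 3 is left out. The dotted line marks a slope of 1.

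Lipid droplet and lipolysis genes held the gene closest to Adipoq over the ranked libraries, Plin1, beside others that hardly moved. Of 16 such genes tested, 5 were separated by at least 2-fold, the median log2 fold change was 0.72 (0.46 without WT replicate 3; 0.01 over all genes), and in the unranked libraries 4 of 16 rose, with a median slope of 0.18 (0.00 over all genes). Plin1, the droplet coat protein (chromosome 7, 79369966 to 79382718, minus strand), ranged from 62.27 through a median of 82.58 to 302.2 CPM in the high and from 10.85 through 26.21 to 35.51 CPM in the low group. No low library reached the lowest high one, and the log2 fold change was 2.43 (SE 0.471, n = 6 and 6). In the unranked libraries Plin1 ran from 3.866 to 207.4 CPM and its slope was 0.92 (CI 0.83 to 1.00, edgeR adjusted p = 7.24e-06), the smallest adjusted p of any gene together with Car3. Plin1 also followed Adipoq most closely over the 17 ranked libraries, with a Spearman rho of 0.988. This is a description, since Plin1 was picked as the highest of all genes over libraries that Adipoq ranked. In the 9 unranked libraries its rho was 0.967, below Ces1d at 1.0 and Cd36 and Fabp4 at 0.983. Cidec (56.44 to 225.8 CPM against 7.432 to 34.40 CPM) had a log2 fold change of 2.36 and a slope of 0.93 (adjusted p = 1.64e-05). Lipe, the hormone-sensitive lipase, stood at 38.46 to 130.4 CPM in the high and 10.02 to 27.20 CPM in the low group, and its slope was shallower, 0.59 (CI 0.48 to 0.71, adjusted p = 0.000701). Aqp7, the glycerol channel of fat cells, also rose (slope 0.85, adjusted p = 0.00606).

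Several genes of the same list had slopes near 0. Plin4, a further droplet coat protein, was abundant everywhere, at 362.7 to 693.9 CPM in the high, 419.5 to 501.3 CPM in the low and 374.3 to 881.3 CPM in the unranked libraries. The ranges overlapped, and the slope of 0.03 (CI -0.18 to 0.25) excludes a change in proportion to Adipoq. Pnpla2, the first lipase of triglyceride breakdown, had a slope of 0.12 (CI 0.01 to 0.24) and Mgll, the last, of 0.10 (CI 0.03 to 0.18), and neither passed after adjustment. Plin5, the perilipin of oxidative tissues, was separated at 0.5773 to 3.853 against 0.05505 to 0.4576 CPM but did not pass in the unranked libraries (slope 0.68, adjusted p = 1.00). Its lowest low library held under 3 counts, the limit of detection used here.

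Promoters of genes that moved together were read for the letters TTGCNNAA or TTNNGCAA (the same motif on the other strand), which resemble the site of C/EBP factors such as the product of Cebpa. Of the 55 genes, 31 matched the RefSeq promoter table, whose build (GRCm38.p6) differs from that of the counts, and 7 of the 31 (22.6%) held the letters in the 250 bases before a start site: Aldh1l1, Cidec, Klhdc7a, Lep, Plin1, Pparg and Rbp4. Over the promoters of 11281 tested genes the share was 9.01%, and among the genes separated upward by at least 2-fold it was 6 of 49 (12.2%). The PPAR-type direct repeat, AGGTCA followed 1 base later by a second AGGTCA, was on either strand in 0 of the 31 and in 0.0532% of the tested genes, and TATAAA or TTTATA was in 22.6% and 8.14%. Such a match is only a match of letters. Upstream sequences are shown for Plin1, Cidec and Lep, picked because they hold a match, and for Adipoq and Cebpa, which hold none. Cd36 and Cfd, which also rose, hold none either, and Cidec has its 1 match at the second of its start sites and none at the first. Plin1 holds 2 matches and Lep 1; capitals mark the matches, sequences run 5′ to 3′ on the gene's strand, and coordinates are GRCm38.p6.
Adipoq, chr16:23146286-23146535, plus strand: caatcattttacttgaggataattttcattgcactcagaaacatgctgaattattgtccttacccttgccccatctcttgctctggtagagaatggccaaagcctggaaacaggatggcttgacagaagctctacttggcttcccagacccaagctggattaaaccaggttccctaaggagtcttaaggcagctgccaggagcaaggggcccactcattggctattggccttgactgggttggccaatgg
Plin1, chr7:79732777-79733026, minus strand: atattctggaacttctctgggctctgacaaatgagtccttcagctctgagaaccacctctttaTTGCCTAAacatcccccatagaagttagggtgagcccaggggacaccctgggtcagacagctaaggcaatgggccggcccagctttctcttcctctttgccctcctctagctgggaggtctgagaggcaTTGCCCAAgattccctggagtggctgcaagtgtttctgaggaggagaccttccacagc
Cidec, chr6:113434765-113435014, minus strand: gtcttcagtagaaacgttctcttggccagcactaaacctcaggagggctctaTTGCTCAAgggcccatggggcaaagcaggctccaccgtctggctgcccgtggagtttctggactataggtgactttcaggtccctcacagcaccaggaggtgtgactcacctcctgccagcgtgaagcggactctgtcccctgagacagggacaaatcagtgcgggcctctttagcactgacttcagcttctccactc
Lep, chr6:29059971-29060220, plus strand: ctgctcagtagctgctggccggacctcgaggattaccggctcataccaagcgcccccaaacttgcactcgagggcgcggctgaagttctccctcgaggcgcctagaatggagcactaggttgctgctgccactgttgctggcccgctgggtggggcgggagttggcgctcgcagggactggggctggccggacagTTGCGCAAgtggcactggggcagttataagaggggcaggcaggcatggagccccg
Cebpa, chr7:35119043-35119292, plus strand: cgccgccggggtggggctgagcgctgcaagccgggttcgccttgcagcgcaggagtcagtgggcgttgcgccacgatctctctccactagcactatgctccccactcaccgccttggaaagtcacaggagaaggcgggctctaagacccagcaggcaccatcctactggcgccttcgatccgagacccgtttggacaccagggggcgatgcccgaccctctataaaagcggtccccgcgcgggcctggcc

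Among adipokines and other secreted factors, 4 of 15 tested genes other than Adipoq were separated by at least 2-fold, the median log2 fold change was 1.67, and 5 of 15 rose in the unranked libraries (Lep, Retn, Cfd, Rbp4 and Nrg4). Cfd, the complement factor adipsin, had a high group of 257.0, 352.5 and 981.2 CPM (lowest, median, highest) and a low group of 31.49, 110.2 and 155.4 CPM. All 6 high libraries exceeded all 6 low ones, and the slope was 0.81 (CI 0.71 to 0.91, adjusted p = 2.21e-05). Retn, which encodes resistin, stood at 26.14, 44.31 and 126.3 CPM against 3.193, 13.53 and 23.71 CPM, again without overlap, with a slope of 0.79 (adjusted p = 0.000719). Lep, the satiety hormone leptin, had a high group of 3.609, 6.675 and 125.5 CPM and a low group of 1.132, 2.410 and 11.39 CPM. Its ranges overlapped, and 1 library set the size of the difference: the log2 fold change was 2.92 (SE 1.05), but 1.34 without WT replicate 3. Lep rose in the unranked libraries (slope 0.94, adjusted p = 0.043), but passed in only 2 of the 9 fits with 1 library left out. Agt, the angiotensin precursor, was separated at 4.422, 5.383 and 11.00 CPM against 0.2830, 1.036 and 1.647 CPM (log2 fold change 2.77, SE 0.382). Its slope in the unranked libraries, 1.26, had a CI of 0.62 to 1.89 and did not pass (adjusted p = 0.201). Rarres2 (chemerin) and Nampt (visfatin), both also made outside fat, had log2 fold changes of 0.01 and 0.16 and slopes of 0.03 and -0.01.

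Of 15 genes of fatty acid and glucose uptake tested, 4 were separated by at least 2-fold, the median log2 fold change was 1.09 (0.67 without WT replicate 3), and 6 rose in the unranked libraries: Cd36, Lpl, Fabp4, Fabp5, Gpd1 and Pck1, the last 2 being enzymes of glycerol phosphate supply rather than transporters. Fabp4 (chromosome 3, 10268785 to 10273737, minus strand) was at 319.8, 383.9 and 973.0 CPM in the high group and 79.04, 129.3 and 190.0 CPM in the low group. The groups did not overlap, with a log2 fold change of 2.00 (SE 0.315). Its slope of 0.75 (CI 0.67 to 0.84, adjusted p = 1.64e-05) lay below 1. Cd36, the fatty acid translocase, was at 107.1, 152.8 and 443.3 CPM against 31.83, 44.17 and 73.17 CPM, with a slope of 0.94 (CI 0.79 to 1.09, adjusted p = 0.000265). Lpl, at 298.1, 395.8 and 1340 CPM against 95.68, 183.2 and 281.4 CPM, rose less steeply (slope 0.65, CI 0.51 to 0.78, adjusted p = 0.00109). Pck1, which makes glycerol phosphate from small precursors in fat, spread from 1.424 to 27.84 CPM in the low and from 39.30 to 123.8 CPM in the high libraries, and its slope was 1.05 (CI 0.81 to 1.29, adjusted p = 0.00552). Slc2a4, the insulin-sensitive glucose transporter that muscle also makes, was at 94.18 to 184.6 CPM in the high and 115.0 to 168.9 CPM in the low group. It overlapped throughout, and its slope was -0.07 (CI -0.21 to 0.06).

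**Figure D3:**
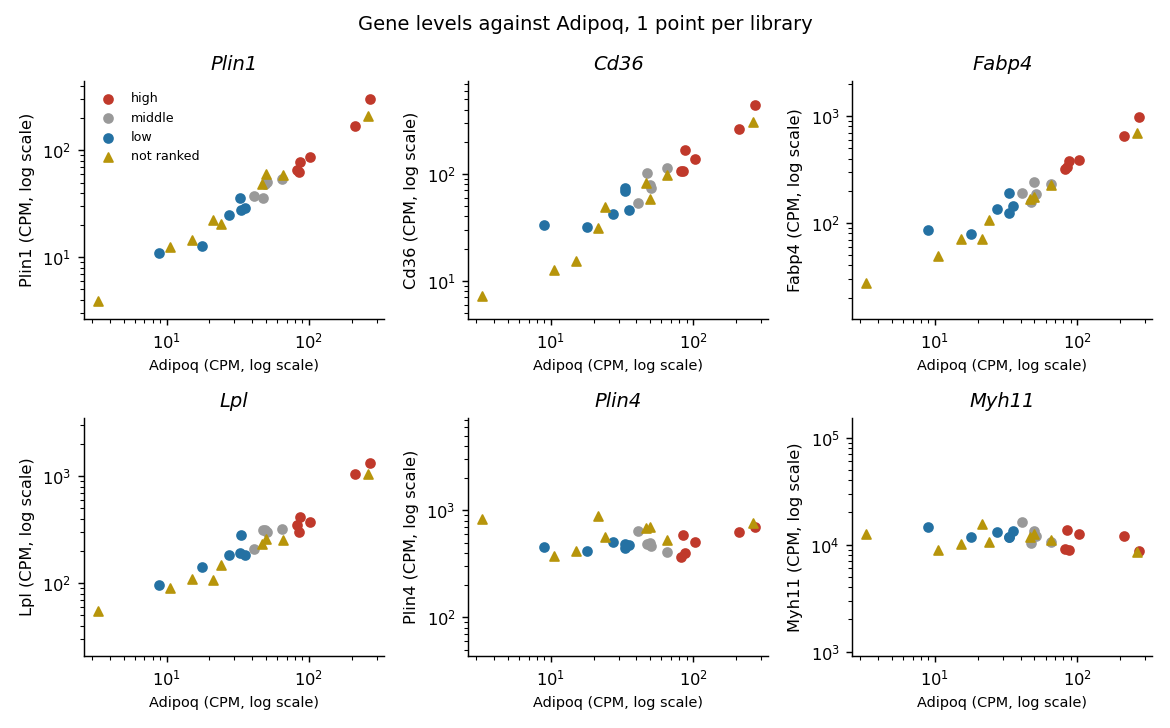
Levels of 6 genes against Adipoq, both in CPM with library scaling on log axes, 1 point per library (circles ranked, triangles unranked). Plin1, Cd36, Fabp4 and Lpl rise with Adipoq across both sets, with slopes in the unranked libraries of 0.92, 0.94, 0.75 and 0.65, while Plin4 and Myh11 have slopes of 0.03 and -0.03.

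Genes of fatty acid and triglyceride synthesis were mostly higher with Adipoq but seldom separated: 20 of 20 tested had a log2 fold change above 0, with a median of 1.16, and 1 (Mogat1, a monoacylglycerol acyltransferase) was separated by at least 2-fold. WT replicate 3 set much of this: without it 19 of 20 were above 0, the median was 0.40, and Scd2, a second stearoyl-CoA desaturase, stood at -0.10. In the unranked libraries 6 of 20 rose (Fasn, Acaca, Scd1, Elovl6, Dgat2 and Mlxipl). Scd1, the stearoyl-CoA desaturase, ranged from 566.6 through 1105 to 6026 CPM in the high and from 77.19 through 495.6 to 1111 CPM in the low group. The groups overlapped, and WT replicate 3 lay far above the next library, at 2329 CPM. Scd1 nevertheless rose in proportion to Adipoq in the unranked libraries (slope 0.97, CI 0.84 to 1.09, adjusted p = 2.23e-05). Fasn, the fatty acid synthase, was at 151.5, 376.2 and 2515 CPM in the high and 64.63, 216.5 and 380.1 CPM in the low group, also overlapping. Its log2 fold change of 1.68 (SE 0.696) became 0.75 without WT replicate 3, and its slope was 0.59 (CI 0.45 to 0.74, adjusted p = 0.00316). Acly, which supplies cytosolic acetyl-CoA, had a log2 fold change of 1.00, or 0.26 without that library, and did not pass in the unranked ones (slope 0.21, adjusted p = 0.549). Dgat2, the last enzyme of triglyceride synthesis, kept 1.44 of 2.22 and rose (slope 0.79, adjusted p = 0.000701). The summed level of the list was 13940 CPM in WT replicate 3, with the other 5 high libraries at 1614 to 5113 CPM and the low group at 917.2 to 3064 CPM.

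Of 12 transcription factors of fat cells, Pparg and Cebpa rose in the unranked libraries and Cebpa was separated by at least 2-fold. Cebpa stood at 26.83, 31.98 and 96.28 CPM in the high and 4.514, 11.91 and 15.35 CPM in the low group, without overlap (log2 fold change 1.99, SE 0.377), and its slope was 0.67 (CI 0.45 to 0.88, adjusted p = 0.0284). Pparg, the central regulator of fat cell differentiation, was at 2.963, 8.935 and 34.58 CPM against 0.9481, 2.095 and 4.710 CPM. Its ranges overlapped, and its slope was 0.79 (CI 0.51 to 1.06, adjusted p = 0.0284). Each of these 2 calls held in few of the 9 fits with 1 library left out, Cebpa in 2 and Pparg in 3. For factors that many other cells use, the log2 fold change was 0.29 for Cebpb, 0.10 for Rxra and -0.10 for Ebf1, with slopes of 0.12, 0.03 and -0.01. Nr1h3, the oxysterol receptor LXR alpha, was separated at a smaller size (log2 fold change 0.68) and had a slope of 0.07 (CI -0.04 to 0.17).

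Of 17 hormone receptors and signalling genes tested in the unranked libraries, Adrb3, Npr3 and Acvr1c rose. Adrb3, the beta-3 adrenoceptor of fat cells, was at 10.56, 30.78 and 72.17 CPM in the high and 4.220, 5.725 and 13.33 CPM in the low group. The groups overlapped, and the slope was 0.91 (CI 0.78 to 1.04, adjusted p = 6.38e-05). Npr3, the clearance receptor for natriuretic peptides, had a slope of 1.04 (adjusted p = 0.00265) and Acvr1c, the activin receptor ALK7, of 0.82 (adjusted p = 0.0239). Insr and Irs2, insulin signalling genes that most cells use, had slopes of -0.01 and 0.14 and did not pass. Over the 6 adipocyte lists together, 96 genes were tested besides Adipoq, 16 were separated by at least 2-fold and 88 had a log2 fold change above 0. Of 95 tested in the unranked libraries, 26 rose. Over all genes other than Adipoq, 72 of 15892 were separated upward by at least 2-fold and 8351 had a log2 fold change above 0. In the unranked libraries 55 of 16725 rose.

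Genes outside these lists were named by the size of their difference. Car3, a carbonic anhydrase abundant in white fat, was at 351.0, 529.8 and 1241 CPM against 45.03, 147.8 and 232.5 CPM, a log2 fold change of 2.19 (SE 0.425) with a slope of 0.95 (CI 0.86 to 1.04, adjusted p = 7.24e-06). Hp, the haemoglobin-binding plasma protein haptoglobin, was at 32.26, 57.56 and 166.2 CPM against 4.459, 13.93 and 17.91 CPM, with a slope of 0.79 (adjusted p = 0.000773). Both were separated without overlap. Among separated genes, the largest log2 fold changes belonged to genes near or under the detection limit in the low group. Slc6a13, a GABA and taurine transporter, was at 0.6444 to 8.580 against 0.04716 to 0.5821 CPM (3.40, SE 0.652). Sucnr1, the succinate receptor, was at 0.7538 to 5.199 against 0.05292 to 0.4068 CPM (3.34, SE 0.640). In both genes the lowest low library held under 3 counts, so the size and order of these fold changes are uncertain. The slopes of Slc6a13 and Sucnr1, 1.12 and 1.08, did not pass (adjusted p = 0.400 and 0.662). Tmem45b, named after its values were seen, had a larger log2 fold change of 3.59 (SE 1.06) with overlapping groups, at 0.1050 to 35.14 against 0.05085 to 2.126 CPM. Its lowest value in each group lies under 3 counts. It rose in the unranked libraries (slope 0.91, CI 0.72 to 1.11, adjusted p = 0.00112). Without WT replicate 3 its log2 fold change was 2.51, below the 2.98 of Slc6a13. The 10 steepest slopes among genes that passed, list members included, began with Tshr, the thyrotropin receptor (1.22, adjusted p = 0.00606), Clstn3 (1.14, adjusted p = 0.00747) and the acute-phase protein gene Orm1 (1.06, adjusted p = 0.0345). Pck1 and Klhdc7a (both 1.05), Npr3 (1.04), Mrap, an accessory protein of melanocortin receptors, and Scd1 (both 0.97) came next, before Cyp2e1, a cytochrome P450, and Car3 (both 0.95). In the 9 fits with 1 library left out, Klhdc7a, Scd1 and Car3 passed in all 9, Tshr, Clstn3, Pck1, Npr3 and Mrap in 8, Orm1 in 4 and Cyp2e1 in 1.

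Thermogenic fat genes were near or under detection, or showed no separation. Ucp1 had 0 counts in every high and every unranked library and at most 2 counts in a low one, which at 3 counts as the limit of detection leaves it undetected in all 26. Zic1, a marker of classical brown fat, was also under 3 counts everywhere. Of 13 brown and beige fat genes tested, 0 were separated, the median log2 fold change was -0.06, and 0 of 15 passed in the unranked libraries. Cox8b, a muscle and brown fat subunit of the respiratory chain, and Slc36a2, an amino acid transporter, went against that median with log2 fold changes of 2.39 and 2.06 (1.77 and 1.54 without WT replicate 3), overlapping groups, and slopes of 0.62 and 0.85 that did not pass (adjusted p = 1.00 and 0.448). Summed over the list, the high libraries held 219.5 to 267.4 CPM and the low ones 236.0 to 280.7 CPM. Of the fat cell progenitor genes, 0 of 11 were separated and 0 of 10 passed, with medians of 0.16 (up to 0.29 without S205A control replicate 4) and -0.01.

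**Figure D4:**
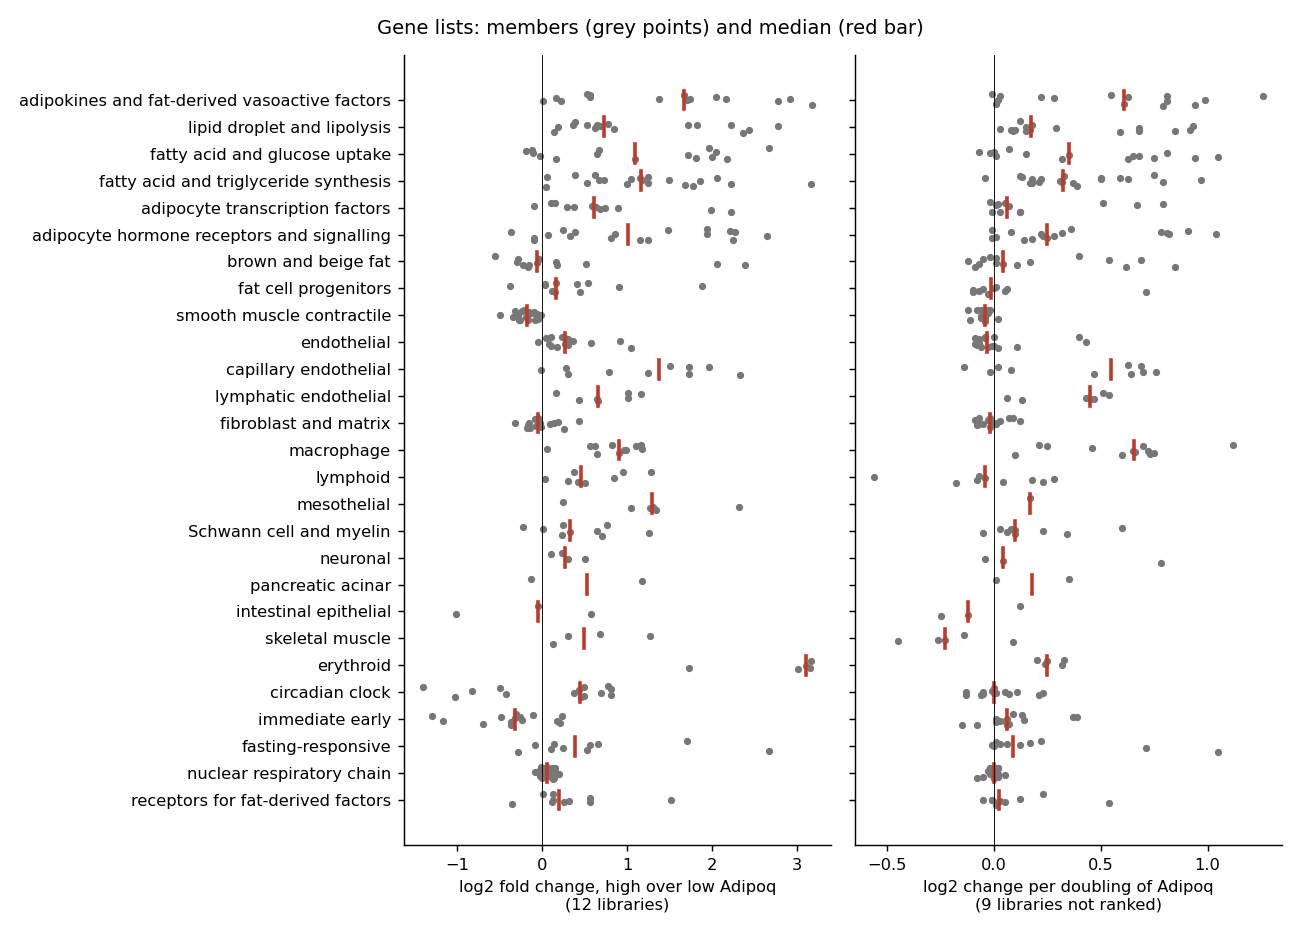
Members (grey points, 1 per gene, Adipoq left out) and median (red bar) of each gene list; the left panel gives the log2 fold change of high over low Adipoq and the right panel the log2 change per doubling of Adipoq in the 9 unranked libraries. The adipokine list has medians of 1.67 and 0.61 and smooth muscle genes -0.18 and -0.04; the erythroid list has 3.10 on the left but 0.25 on the right.

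Markers of other cell types that also lie in fat were mostly higher in the high group, though few were separated. In these whole-artery libraries, fewer cells of a type and less RNA per cell cannot be told apart. Macrophage genes had a median log2 fold change of 0.90, with 11 of 11 above 0 but 0 separated, and 12 of 12 slopes in the unranked libraries were above 0 (median 0.66), of which Csf1r alone passed. Csf1r, the growth factor receptor of macrophages, was at 6.193 to 19.85 CPM in the high and 1.958 to 11.22 CPM in the low group. Its ranges overlapped, and its slope was 0.73 (CI 0.53 to 0.92, adjusted p = 0.00552). The summed macrophage level was 69.22 to 217.9 CPM in the high and 36.32 to 117.5 CPM in the low group, and its part in the other differences was not tested. Apoe, which macrophages and fat cells both make, was at 122.6 to 626.5 against 128.1 to 168.7 CPM and rose with a shallow slope of 0.36 (CI 0.25 to 0.47, adjusted p = 0.0111).

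Capillary endothelial genes had a median log2 fold change of 1.37 (9 of 10 above 0), against 0.27 for the 16 endothelial genes of all vessels (-0.03 without Y308F control replicate 1). The median slopes of the 2 lists were 0.55 and -0.03, and this difference between lists was not tested. Summed capillary levels overlapped, at 687.9 to 1991 CPM in the high and 579.4 to 880.8 CPM in the low group. WT replicate 3, the library with the most Adipoq, held 729.2 CPM. Rgcc, a cell cycle regulator high in capillaries, was separated at 7.003, 9.754 and 34.58 CPM against 1.651, 2.775 and 4.445 CPM but did not pass in the unranked libraries (slope 0.69, CI 0.28 to 1.10, adjusted p = 0.432). Btnl9 overlapped between groups, at 4.417 to 32.69 against 3.726 to 10.74 CPM, yet rose (slope 0.76, CI 0.54 to 0.98, adjusted p = 0.00875). Gpihbp1, which anchors lipoprotein lipase on capillaries, fell just short (slope 0.63, adjusted p = 0.0519). Among pan-endothelial genes Cdh5 had a slope of 0.00 (CI -0.37 to 0.38) and Vwf of 0.00 (CI -0.48 to 0.48). Lymphatic genes had 7 of 7 log2 fold changes and 7 of 7 slopes above 0, with medians of 0.66 and 0.45, and 0 passed either rule. Mesothelial genes, which mark the lining of the mesentery, summed to 2.764 to 41.38 CPM in the high and 2.688 to 21.16 CPM in the low group, with overlapping ranges. Of 6 tested, 6 had a log2 fold change above 0 and 0 were separated, with a median of 1.29 (0.66 without Y308F control replicate 1, 2.64 without S205A replicate 1). Lymphoid genes had 8 of 8 above 0 and a median of 0.46, but 3 of 8 and -0.08 without Panx1 KO replicate 3; Schwann cell and myelin genes had 8 of 9 above 0 and a median of 0.33, or 0.13 without WT replicate 3. In both lists 0 genes were separated and 0 passed in the unranked libraries, where the median lymphoid slope was -0.04.

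**Figure D5:**
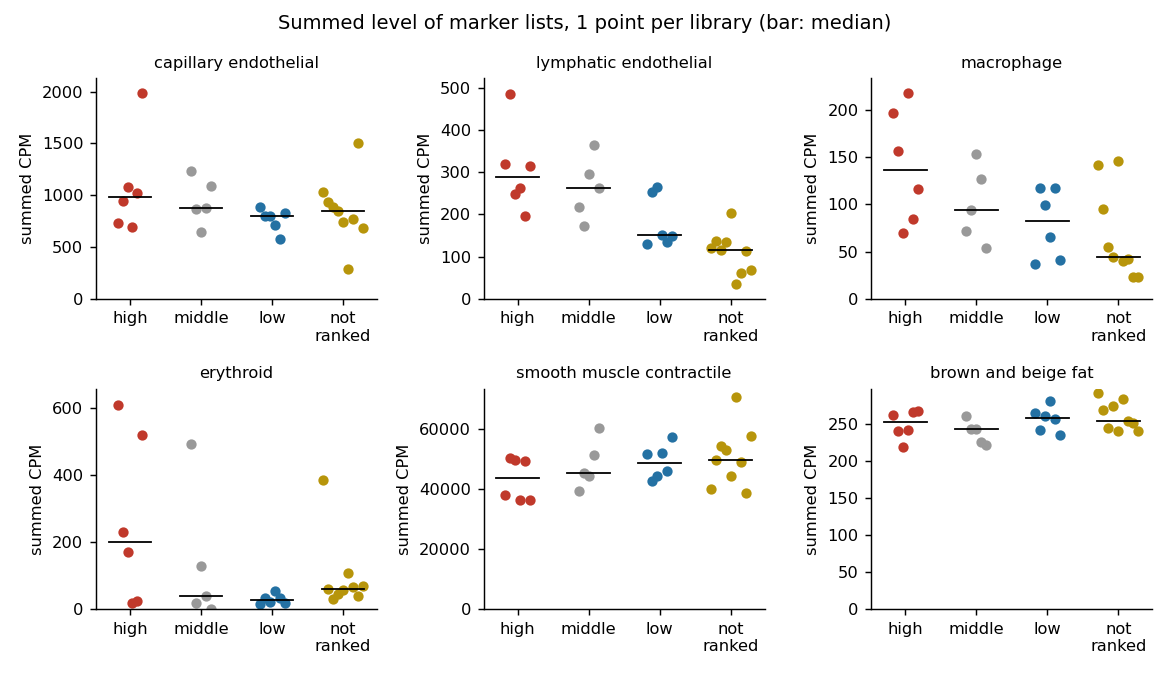
Summed CPM of 6 marker lists, 1 point per library, by high, middle, low and unranked libraries; bars are medians and each axis starts at 0. The high and low groups overlap in each of the 6 panels, and the smooth muscle sums are 36140 to 50170 CPM in the high and 42750 to 57160 CPM in the low group.

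Arterial muscle genes lay slightly lower in the high group. All 18 contractile genes had a log2 fold change below 0, with a median of -0.18 (-0.19 without library scaling), and 0 were separated. Without Panx1 KO replicate 3 or Y308F control replicate 3, 14 of 18 were below 0, and without Y308F control replicate 1 it was 16 with a median of -0.12, and without S205A replicate 1 it was 17. In the unranked libraries the median slope was -0.04 and 0 of 18 passed. Myh11, the smooth muscle myosin, was at 8750, 10570 and 13570 CPM in the high and 11690, 12500 and 14560 CPM in the low group. The groups overlapped, and the slope was -0.03 (CI -0.18 to 0.11). Fibroblast and matrix genes had medians of -0.05 and -0.02, also with 0 called. Of the 26 genes that lay wholly lower in the high group, 0 passed in the unranked libraries and 17 had a slope below 0. Examples are Gria1, a glutamate receptor subunit, at 4.511 to 8.659 against 10.02 to 14.49 CPM (log2 fold change -0.80, SE 0.158), and Cacnb2, a calcium channel subunit, at 19.52 to 39.40 against 41.43 to 52.00 CPM (-0.50, SE 0.138). Their slopes in the unranked libraries were 0.16 (CI -0.16 to 0.49) and -0.04 (CI -0.19 to 0.11).

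Some genes separated the high and low groups but did not pass in the unranked libraries; 2 of them are named here after their values were seen. Ifi27l2a, an interferon-induced gene, was at 62.38, 81.63 and 167.5 CPM in the high and 15.36, 22.33 and 31.34 CPM in the low group (log2 fold change 2.07, SE 0.268), but its slope of 0.42 (CI 0.09 to 0.76) did not pass (adjusted p = 0.987). Irf7, the interferon regulatory factor, was at 15.14, 18.88 and 47.34 CPM against 6.814, 9.878 and 14.20 CPM, with a slope of -0.19 (CI -0.59 to 0.21). Whether these slopes differ from the differences in the ranked libraries was not tested. Exons of Ifi27l2a overlap Ifi27 and those of Irf7 overlap Phrf1, and strand use in counting is not given in the sources used here.

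Clock and stress genes varied between libraries of both groups. Summed blood genes lay above every low library in WT replicate 3, Y308F control replicates 1 and 2 and Y308F replicate 1. In Panx1 KO replicate 3 and S205A control replicate 4 these genes lay within the low range. Of 5 erythroid genes 0 were separated, although their median log2 fold change was 3.10: the summed level was 18.64 to 607.2 CPM in the high and 15.61 to 54.44 CPM in the low group, and Hba-a1, an alpha globin, ran from 5.327 to 190.8 against 4.644 to 15.97 CPM. In the unranked libraries the median erythroid slope was 0.25 and 0 of 5 passed. Dbp, an output gene of the circadian clock that differs with the hour of collection, was at 3.452, 161.7 and 256.2 CPM (lowest, median, highest) in the high and 2.847, 27.81 and 223.1 CPM in the low group. The ranges overlapped, with the higher median in the high group. Over 14 clock genes the median log2 fold change was 0.45 (0.24 without WT replicate 3 to 0.90 without Panx1 KO replicate 1), the summed level had medians of 1299 and 684.5 CPM, and 0 were separated; in the unranked libraries the median slope was 0.00 and 0 of 14 passed. Immediate early genes had a median log2 fold change of -0.32 (-0.18 without Y198F control replicate 1, -0.21 without WT replicate 3) and a median slope of 0.06, with 0 of 14 called by either rule. The part of blood, clock time and handling in the differences was not tested.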

How the data were processed

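The members and gene lists were chosen with earlier results of these data known. Reads were mapped to GRCm39 with STAR 2.7.9a and counted per gene with featureCounts (Rsubread 2.20.0), per the labels and the design text; the authors deposited these raw counts, used here. The annotation release and strand setting are not given in the sources used here. The deposited normalized and comparison tables were not used. Gene symbols and positions came from GENCODE vM39 (56310 of 57010 identifiers matched; the rest held 0.0433% of counts), upstream sequences from RefSeq (GRCm38.p6).

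Counts were fitted with edgeR 4.0.16 in R 4.3.3 (filterByExpr, TMM scaling, robust quasi-likelihood). Expression in high and low libraries was compared without p-values. In the 9 unranked libraries the slope on log2 Adipoq CPM of total counts was tested with label group as a term, adjusted by Benjamini-Hochberg over all genes. limma 3.58.1 and DESeq2 1.42.0 gave alternatives. Both procedures were tested on simulated data.

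Genes were named by rule: Adipoq, Panx1, Cd36, Fabp4, Lpl and Ucp1; the 12 largest separated differences in each direction and the 10 largest slopes past the threshold, both with a mean of at least 1 CPM; up to 6 members per list by size plus separated members of adipocyte lists; and the 8 genes most like Adipoq by Spearman rho over the 17 ranked libraries. Genes of a list beyond that rule were named for contrast after their values were seen. Counts under 3 are taken as undetected, but CPM and fold changes below that limit are printed as computed, with no floor applied. Replicate precision is that of 6 against 6 libraries.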

Additional observations from a re-analysis of the deposited data

Results flagged for a closer look

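Of 132 sets of 6 values checked for a library set apart from the others of its group by Dixon's gap test, 23 (17.4%) had one. The usual rate of about 5 in 100 holds for independent, unselected values with a normal spread. These values are unlogged CPM in groups chosen by Adipoq, and WT replicate 3 is the highest by that choice. The genes and lists also overlap, so the sets are not independent and the share cannot be compared with that rate. In the high group WT replicate 3 was the outlying library for 10 genes, besides the summed synthesis list at 13940 CPM and the summed transcription factors at 608.1 CPM. These genes were Cidec at 225.8 CPM, Retn at 126.3 CPM, Lep at 125.5 CPM, Scd1 at 6026 CPM, Fasn at 2515 CPM, Dgat2 at 550.8 CPM, Gpd1 at 431.6 CPM, Cebpa at 96.28 CPM, Pparg at 34.58 CPM and Acly at 876.0 CPM. Y308F control replicate 1 was the highest for summed progenitor genes at 1918 CPM, endothelial genes at 13040 CPM, capillary genes at 1991 CPM, neuronal genes at 299.9 CPM and receptors for fat-derived factors at 1518 CPM; this library also had the highest ribosomal share of the high group, 7.085%. Irf7 was highest in Y308F replicate 1, at 47.34 CPM.

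In the low group Panx1 KO replicate 2 was the lowest for summed endothelial genes at 4862 CPM and for receptors for fat-derived factors at 754.2 CPM. Y308F control replicate 3 was the highest for Schwann cell and myelin genes at 433.8 CPM, Y308F replicate 3 for Lep at 11.39 CPM and Panx1 KO replicate 1 for Btnl9 at 10.74 CPM.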

How the results depend on the processing

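The count of 73 genes other than Adipoq separated by at least 2-fold stayed within 1.5 times under other size factors, no scaling, no filter, the highest 5 against the lowest 5, the ranking by Plin1, Cidec, Lipe and Retn, line as a term and both highest libraries left out (66 to 99). It was 10 with the highest 8 against the lowest 8, which brings in libraries of the middle and needs more libraries to lie apart. Leaving out 1 library at a time gave 72 to 116, where the smaller group separates more easily. The 55 genes past the threshold in the unranked libraries became 185 with DESeq2, 83 with limma voom, 103 without a filter on low counts and 113 without the group term; leaving out 1 library gave 19 to 89, and leaving out both the highest and the lowest library, an alternative chosen after seeing the data, gave 3. With a replicate block the count was 19, of which 15 were higher with Adipoq, all among the 55, and 4 were lower, where the fit without the block called 0 lower, and the high-against-low count was 74. The replicate numbers did not pair the unranked libraries: correlations of deviations between same-numbered libraries were -0.0692 to 0.0963, and 3 of 8 libraries correlated best with their own number. No fold change or slope of a named gene past its rule changed sign under these alternatives. Of the values of named genes under the alternatives, 24 fold changes moved by more than the spread between replicates and 3721 did not, and 437 slope tests kept their side of the threshold while 120 lost their call, 20 of these 120 under the replicate block and 30 with both end libraries left out; the log2 fold change of Lpl was 1.00 without both of the highest ranked libraries. Genes under 3 counts cannot be ranked.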
